A study of Mus musculus with 14 samples.

Results

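The 10 genes described here mark periportal hepatocytes, the liver cells nearest to the incoming portal blood: Cyp2f2, Hal, Sds, Ass1, Pck1, Gls2, Aldh1b1, Arg1, Cps1 and G6pc. They were taken by name as known zone markers, with earlier results of these data known, and each matched 1 of the 24732 features in the count tables of liver and aorta. RNA near the 3′ end of transcripts was counted in 14 mouse libraries in 4 groups, with 4 BT3xHuBL livers, 4 HuBL livers, 3 BT3xHuBL aortas and 3 HuBL aortas. All animals were fed normal laboratory diet, and the labelled time is 52 weeks. What the strain names stand for is not in the labels. As background from this field, HuBL mice carry human apolipoprotein B-100 as a transgene and lack the LDL receptor, and the BT3 line carries a transgenic T cell receptor that recognises that protein, so both genotypes share the HuBL background. The promoters that drive these transgenes, the sex of the animals and the feeding state and hour of collection are not stated in those sources. Nor do the labels tie each library to its own animal, so that every p-value below measures the spread between libraries.

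Hepatocytes divide their work along the axis that runs from the portal vein to the central vein. Those at the periportal end make glucose, turn ammonia into urea and break down amino acids, whereas pericentral cells at the other end, under Wnt signals, make glutamine and carry much of the drug metabolism. Several periportal genes are also known as targets of glucagon, glucocorticoids and insulin, and therefore follow fasting, feeding and the time of day.

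Liver libraries held 13228123 to 17992459 counts and aorta libraries 41933263 to 65539765. The labelled tissues matched their markers. The 10 general hepatocyte markers summed to 136000 to 191200 CPM (counts scaled to a fixed library total) in BT3xHuBL livers and to 143200 to 179900 CPM in HuBL livers, while the 6 smooth muscle markers summed to 12350 to 16940 CPM in BT3xHuBL aortas and to 13640 to 16030 CPM in HuBL aortas. The same 10 hepatocyte markers summed to 176.8 to 239.5 CPM in BT3xHuBL aortas and to 198 to 206.1 CPM in HuBL aortas. Albumin, 1 of those markers, reached at most 0.621 CPM in any aorta. The library names of livers and aortas fall in separate number ranges and the depths differ, so tissue and library series cannot be told apart. In bulk tissue, fewer cells of a type and less RNA per cell cannot be told apart either.

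RefSeq (GRCm38.p6) gave a promoter for 6 of the 10 genes: Cyp2f2, Hal, Ass1, Pck1, Aldh1b1 and G6pc. The 250 bases before the RefSeq start are shown for 4 of them. The RefSeq start lies inside the GENCODE gene span given further on for Pck1, G6pc, Cyp2f2 and Ass1, and distances below are counted from the RefSeq start. Pck1 and G6pc are the glucose-making genes, with wide spreads between BT3xHuBL livers and, for G6pc, also between HuBL livers. Cyp2f2 and Aldh1b1 are the members whose livers did not overlap between genotypes. All are read 5′ to 3′ on the plus strand, from chr2:173152823-173153072 for Pck1, chr11:101367466-101367715 for G6pc, chr7:27119705-27119954 for Cyp2f2 and chr4:45798772-45799021 for Aldh1b1. Capitals mark a match to 1 of the 5 motifs listed after them.
Pck1: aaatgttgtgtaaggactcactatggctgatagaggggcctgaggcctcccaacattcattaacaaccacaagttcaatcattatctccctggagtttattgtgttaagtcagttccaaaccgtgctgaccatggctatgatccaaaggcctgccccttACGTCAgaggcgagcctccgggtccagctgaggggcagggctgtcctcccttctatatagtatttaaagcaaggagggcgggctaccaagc
G6pc: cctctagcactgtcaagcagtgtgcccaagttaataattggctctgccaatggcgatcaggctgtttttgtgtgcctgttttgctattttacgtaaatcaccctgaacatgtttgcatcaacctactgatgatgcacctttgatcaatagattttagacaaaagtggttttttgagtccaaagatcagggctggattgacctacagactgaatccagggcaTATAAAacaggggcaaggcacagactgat
Cyp2f2: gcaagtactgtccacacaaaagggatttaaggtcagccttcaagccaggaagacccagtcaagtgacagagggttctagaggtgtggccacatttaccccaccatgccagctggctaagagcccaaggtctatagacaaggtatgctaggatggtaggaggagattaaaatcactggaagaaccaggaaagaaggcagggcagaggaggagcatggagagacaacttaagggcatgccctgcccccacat
Aldh1b1: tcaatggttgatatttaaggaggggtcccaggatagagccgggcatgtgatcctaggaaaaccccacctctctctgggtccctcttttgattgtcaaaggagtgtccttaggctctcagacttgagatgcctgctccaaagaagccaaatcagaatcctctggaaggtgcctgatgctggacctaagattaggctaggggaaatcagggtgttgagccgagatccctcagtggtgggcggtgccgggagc
The motifs were searched on both strands. ACGTCA, the core of the cAMP response element that glucagon signalling uses, was found in the Pck1 promoter, its first base 91 bases before the start, and in 6.47% of 32851 RefSeq promoters of this length. TATAAA, the TATA box, was found 29 bases before the G6pc start and, as its reverse complement, 28 bases before the Hal start, against 12.4% of all promoters. CACGTG, the clock E-box, was found 36 bases before the Ass1 start and in 6.02% of all promoters. GTAAACA, a FOXO binding core, and TTATGTAA, the D-box of Dbp, Tef and Hlf, were in none of the 6 promoters and in 3.17% and 0.819% of all. No promoter of the 6 held more than 1 match, so none overlapped. A match is a run of letters and was not tested for binding.

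The main question for these genes is whether liver with the T cell receptor line crossed in held different levels of them from HuBL liver. In BT3xHuBL livers all 10 genes averaged below HuBL livers, by 0.16 (Arg1) to 1.12 (G6pc) on the log2 scale, with a median difference of −0.44. Among all 12453 genes tested in liver, 48.2% lay below 0 and the median was 0.01. None of the 10 passed the test of a single gene, the quasi-likelihood test of edgeR, adjusted over all genes by Benjamini-Hochberg with a threshold of 0.05, which called 0 of 12453 genes (0%), with 1381 (11.1%) at an unadjusted p under 0.05, while DESeq2 called 127 and limma-voom 0. At an unadjusted p under 0.05, 3 of the 10 lay lower, namely Cyp2f2, Aldh1b1 and Gls2, against 5.38% of all genes tested. The 4 livers of each genotype did not overlap for 2 of the 10, Cyp2f2 and Aldh1b1, both lower in BT3xHuBL, against 3.58% of all genes. DESeq2, the alternative count test, called those 2 genes lower, against 0.739% of all genes, and limma-voom called 0 of the 10. In no alternative setting, including each library left out in turn, did any of the 10 liver differences change sign.

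**Figure D1:**
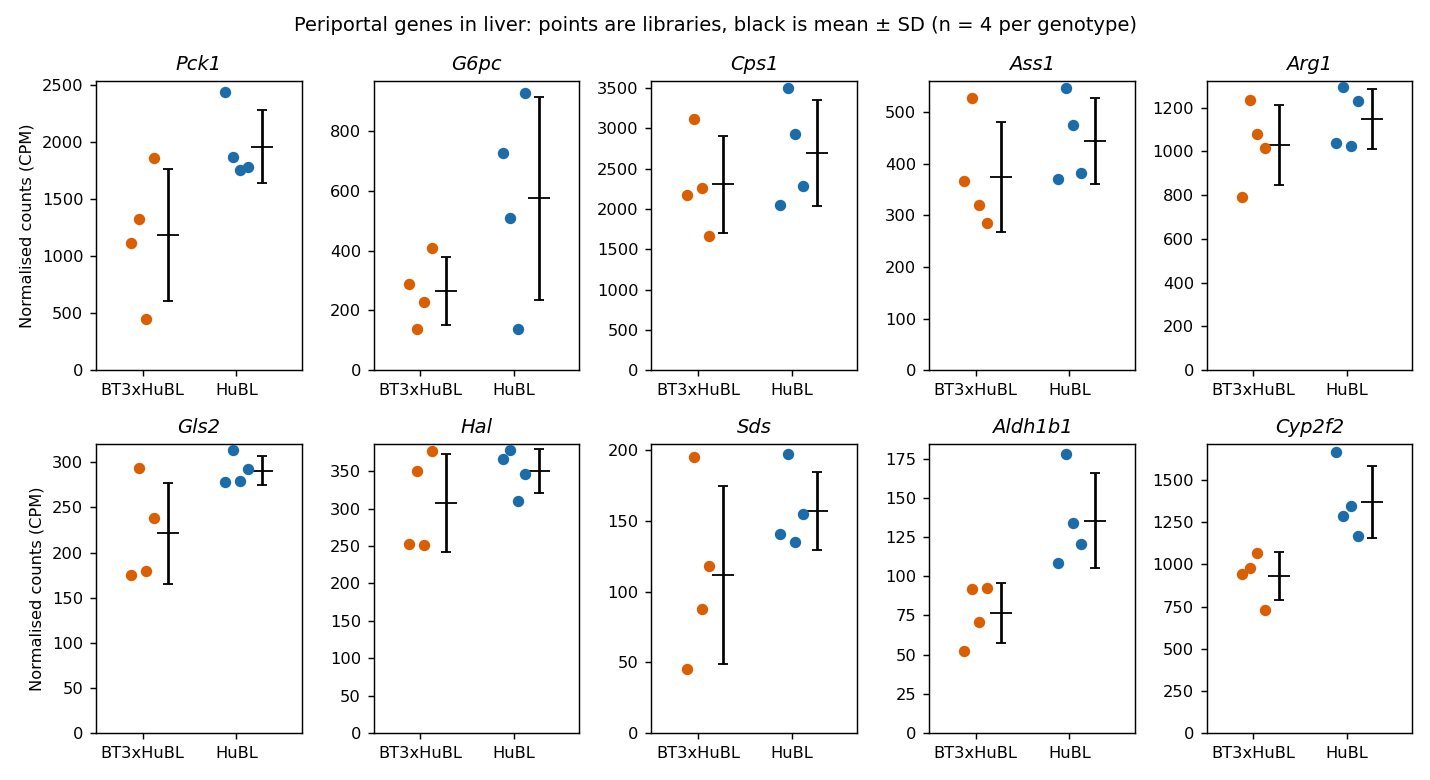
Normalised counts (CPM, vertical axes starting at 0) of the 10 periportal genes in BT3xHuBL livers (orange) and HuBL livers (blue); points are libraries in the order of their numbers and black marks are the mean ± SD. The genotypes do not overlap for Cyp2f2 and Aldh1b1, whereas G6pc spreads from 136 to 927 CPM within HuBL livers.

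Cyp2f2 (chr7:27119909-27133660, GRCm38, plus strand), a cytochrome P450 of periportal hepatocytes and airway club cells, was counted at 941, 980, 1065 and 732 CPM in the 4 BT3xHuBL livers, against 1669, 1288, 1349 and 1168 CPM in the 4 HuBL livers. Every BT3xHuBL liver lay below every HuBL liver. BT3xHuBL livers averaged 930 ± 142 CPM and HuBL livers 1368 ± 214 CPM (SD, n = 4 each), and the log2 fold change was −0.56 (SE 0.15, 95% interval −0.88 to −0.24). The adjusted p was 0.281 in edgeR and 0.0236 in DESeq2, with a range over all alternatives of 0.0236 to 0.548.

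Aldh1b1 (chr4:45799022-45804604, plus strand), a mitochondrial aldehyde dehydrogenase, was counted at 52.4, 92.0, 70.6 and 92.3 CPM in BT3xHuBL livers, against 108.5, 178, 134 and 121 CPM in HuBL livers. Its genotypes were also fully apart, with the gap between the highest BT3xHuBL and the lowest HuBL liver smaller than the spread within either genotype. BT3xHuBL livers averaged 76.8 ± 19.2 CPM and HuBL livers 135 ± 30.4 CPM, a log2 fold change of −0.82 (SE 0.21, 95% interval −1.28 to −0.36). Its adjusted p was 0.281 in edgeR and 0.0129 in DESeq2, and ran between 0.0129 and 0.548 over all alternatives. Aldh1b1 was the least abundant of the 10 genes in HuBL liver, ranking 1058 of 24732 features, where Cps1 ranked 39.

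The glucose-making pair varied widely between BT3xHuBL livers, and G6pc also between HuBL livers. Pck1 (chr2:173153048-173159273, plus strand), the cytosolic enzyme that commits oxaloacetate to glucose synthesis, was counted at 1111, 1321, 452 and 1858 CPM in BT3xHuBL livers, against 2435, 1866, 1751 and 1783 CPM in HuBL livers. BT3xHuBL liver 3 was far below all others, BT3xHuBL liver 4 lay inside the HuBL range, and HuBL liver 1 stood above its group. BT3xHuBL livers averaged 1185 ± 581 CPM and HuBL livers 1959 ± 321 CPM, a log2 fold change of −0.72 (SE 0.36, 95% interval −1.56 to 0.11, edgeR adjusted p = 0.486). Without BT3xHuBL liver 3 the log2 fold change was −0.45.

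G6pc (chr11:101367561-101377903, plus strand), the catalytic subunit that releases free glucose from the hepatocyte, was counted at 287, 137, 227 and 408 CPM in BT3xHuBL livers, against 726, 510, 136 and 927 CPM in HuBL livers. HuBL liver 3 was as low as the lowest BT3xHuBL liver while the other 3 HuBL livers were above all BT3xHuBL livers, so the groups overlapped through that library. The highest HuBL liver held 6.81 times the lowest, the widest such ratio among the 10 genes in either genotype. The log2 fold change was −1.12 (SE 0.59, 95% interval −2.51 to 0.28, edgeR adjusted p = 0.504), the largest difference of the 10 and the one with the largest standard error. It was −1.44 without HuBL liver 3 and −0.79 without HuBL liver 4.

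The 3 urea cycle members differed by about the size of their standard errors. Cps1 (chr1:67123026-67231259, plus strand), the mitochondrial enzyme that brings ammonia into the cycle, was counted at 2178, 3113, 2263 and 1667 CPM in BT3xHuBL livers, against 2044, 3494, 2934 and 2289 CPM in HuBL livers. Ass1 (chr2:31470207-31520672, plus strand), which joins citrulline and aspartate, was counted at 366, 527, 319 and 284 CPM in BT3xHuBL livers, against 369, 546, 475 and 381 CPM in HuBL livers. For both genes liver 2 was the highest of its genotype and the genotypes overlapped widely. Arg1 (chr10:24915221-24927484, minus strand), which releases urea from arginine, was counted at 792, 1233, 1078 and 1013 CPM in BT3xHuBL livers, against 1039, 1296, 1025 and 1231 CPM in HuBL livers. BT3xHuBL liver 1 lay well below every HuBL liver and BT3xHuBL liver 4 just below them, while the other BT3xHuBL livers lay within the HuBL range. The log2 fold changes were −0.22 (SE 0.21) for Cps1, −0.24 (SE 0.20) for Ass1 and −0.16 (SE 0.145) for Arg1, with edgeR adjusted p-values of 0.706, 0.653 and 0.694. The 95% intervals were −0.69 to 0.25, −0.68 to 0.20 and −0.48 to 0.16.

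Among the amino acid enzymes, Gls2 (chr10:128194457-128210004, plus strand), the liver glutaminase, was counted at 175, 293, 179 and 238 CPM in BT3xHuBL livers, against 278, 313, 279 and 293 CPM in HuBL livers. The 4 HuBL livers lay within a narrow band (CV, the SD as a share of the mean, 5.65%), and only BT3xHuBL liver 2 reached it. The log2 fold change was −0.39 (SE 0.16, 95% interval −0.74 to −0.05, edgeR adjusted p = 0.405).

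Hal (chr10:93488768-93519304, plus strand), histidine ammonia-lyase, was counted at 253, 350, 251 and 377 CPM in BT3xHuBL livers, against 367, 378, 310 and 346 CPM in HuBL livers. Sds (chr5:120476526-120483932, plus strand), serine dehydratase, was counted at 45.5, 195, 87.5 and 118 CPM in BT3xHuBL livers, against 141, 197, 135 and 155 CPM in HuBL livers. In Hal a pair of BT3xHuBL livers, 1 and 3, lay below all HuBL livers and the other pair lay within them, while in Sds only BT3xHuBL liver 2 reached the HuBL range. Their log2 fold changes were −0.19 (SE 0.15, edgeR adjusted p = 0.637) and −0.49 (SE 0.40, edgeR adjusted p = 0.665). For Sds it was −0.23 without BT3xHuBL liver 1 and −0.90 without BT3xHuBL liver 2. Sds and Gls2 carry the tables' overlap mark, and in GENCODE M21 Sds overlaps Plbd2 and Gls2 overlaps Spryd4 on the opposite strand, with Cyp2f2 overlapping the antisense gene Gm15883. No source used here gives the strand setting of the counting, so reads of these pairs may be shared.

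**Figure D2:**
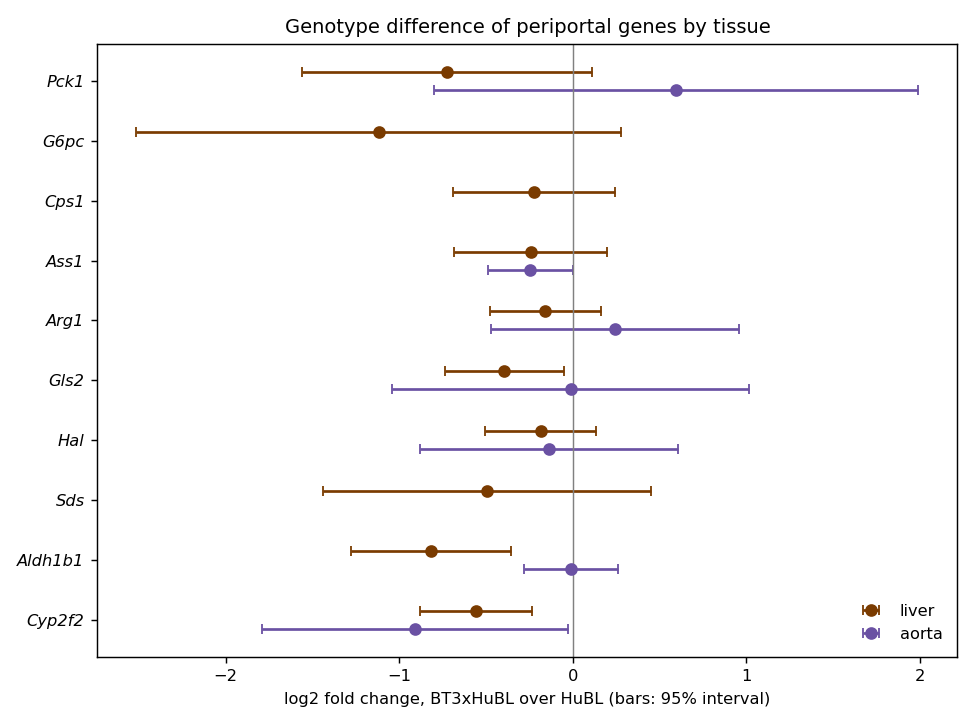
Log2 fold change, BT3xHuBL over HuBL, of each periportal gene in liver (brown) and aorta (purple), with 95% intervals from edgeR; Sds, Cps1 and G6pc were too low in aorta to be tested. In liver all 10 points lie left of 0, with 3 intervals that leave it out, and in aorta the points lie on both sides.

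The 10 genes differed in which liver was the highest and the lowest. BT3xHuBL liver 1 was in the lower 4 of the 8 livers for all 10 genes and BT3xHuBL liver 3 for 9, while BT3xHuBL liver 4 was there for 7 and BT3xHuBL liver 2 for only 4. HuBL liver 2 was the highest of all livers for 7 genes, HuBL liver 1 for Cyp2f2 and Pck1, and HuBL liver 4 for G6pc, so that no BT3xHuBL liver was the highest for any gene. The lowest liver was BT3xHuBL 1 for Sds, Gls2, Aldh1b1 and Arg1, BT3xHuBL 4 for Cyp2f2, Ass1 and Cps1, BT3xHuBL 3 for Hal and Pck1, and HuBL 3 for G6pc. Summed over the 10 genes, the BT3xHuBL livers held 6202, 8241, 5993 and 6788 CPM, against 9176, 10070, 8528 and 8696 CPM in HuBL livers. The sums did not overlap, and BT3xHuBL liver 2 came closest to the HuBL livers. Cps1 and Pck1 weigh most in these sums, with means of 2691 and 1959 CPM in HuBL livers. Each of these 2 genes overlapped between genotypes on its own. The spread between libraries, as a CV, was 15.2% (Cyp2f2) to 56.6% (Sds) in BT3xHuBL livers and 5.65% (Gls2) to 58.9% (G6pc) in HuBL livers.

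**Figure D3:**
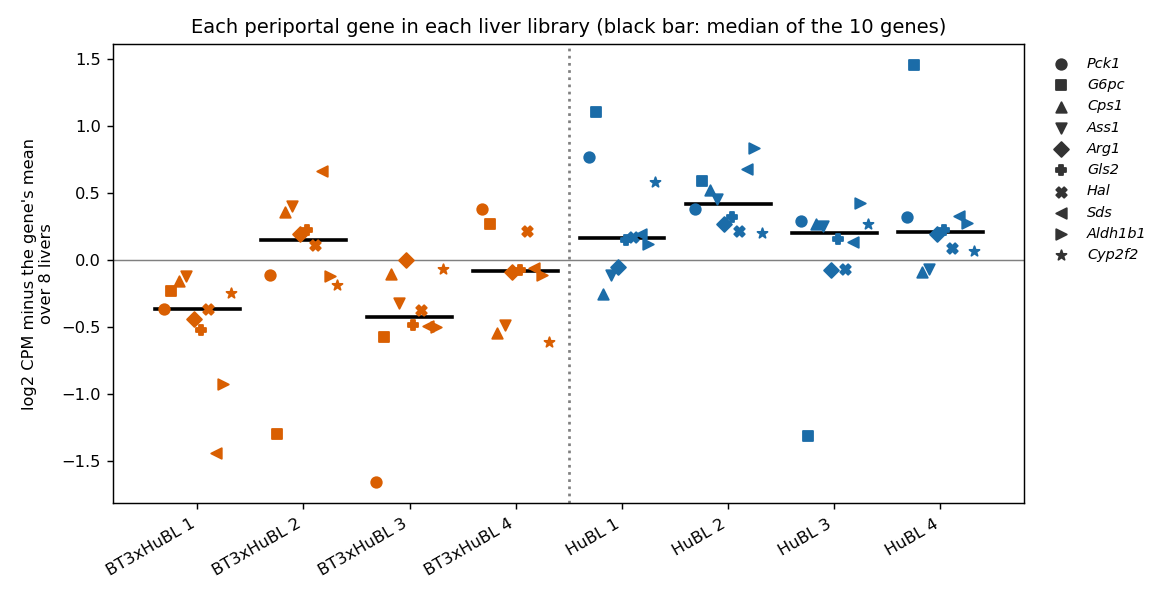
Log2 CPM of each periportal gene in each liver library minus the gene's mean over the 8 livers (vertical axis), BT3xHuBL in orange and HuBL in blue, with the median of the 10 genes as a black bar. The bars of BT3xHuBL livers 1, 3 and 4 lie below 0, that of BT3xHuBL liver 2 lies above it with the 4 HuBL livers, and Pck1, G6pc and Sds scatter widely.

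The other genes of the same pathways, taken from textbook lists, gave no edgeR call in liver either, and their medians lay nearer to 0. Of 7 other urea cycle genes, 5 lay below 0 and 2 above, with a median log2 fold change of −0.13. Otc, the enzyme that makes citrulline, was counted at 430, 481, 525 and 467 CPM in BT3xHuBL livers, against 630, 630, 612 and 546 CPM in HuBL livers, without overlap (log2 fold change −0.34, SE 0.10, edgeR adjusted p = 0.301). Asl, which splits argininosuccinate, had a log2 fold change of −0.42 (SE 0.14, edgeR adjusted p = 0.328), with 1 BT3xHuBL liver inside the HuBL range. Of 7 other gluconeogenesis genes, 5 lay below 0 and 2 above, with a median of −0.15. Mdh1, cytosolic malate dehydrogenase, had −0.21 (SE 0.09) without overlap, and Pcx, pyruvate carboxylase, had 0.24 (SE 0.13), with edgeR adjusted p-values of 0.425 and 0.494.

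The 13 other genes of amino acid breakdown all lay below 0, with a median of −0.20, and 4 of them did not overlap between genotypes, all lower in BT3xHuBL, against 3.58% of all genes. Tat, tyrosine aminotransferase and a classical glucocorticoid target, was counted at 609, 620, 685 and 586 CPM in BT3xHuBL livers, against 872, 1379, 1111 and 1183 CPM in HuBL livers. The 4 BT3xHuBL livers were close together and well below the HuBL livers, and the log2 fold change of −0.86 (SE 0.14) had the smallest edgeR adjusted p of these pathway genes, 0.134. Uroc1, the enzyme after Hal in histidine breakdown, had −0.28 (SE 0.10, edgeR adjusted p = 0.367) and did not overlap. The 13 genes summed to 7731 to 9610 CPM in BT3xHuBL livers and to 10180 to 11570 CPM in HuBL livers.

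Other markers of the periportal zone lay on both sides of 0. Of 8 other periportal markers 5 lay below 0 and 3 above, with a median of −0.12. Etnppl, an enzyme of phosphoethanolamine breakdown, was counted at 35.1, 84.7, 52.2 and 57.7 CPM in BT3xHuBL livers, against 188, 92.8, 102 and 87.1 CPM in HuBL livers, without overlap (log2 fold change −1.03, SE 0.34, edgeR adjusted p = 0.360). Sult5a1, a sulfotransferase, had −1.17 (SE 0.46, edgeR adjusted p = 0.418).

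Pericentral genes, from the other end of the axis, gave 10 of 14 above 0 and a median of 0.11. Slc1a2, a glutamate transporter, was counted at 162, 148, 118 and 152 CPM in BT3xHuBL livers, against 99.7, 117, 107 and 96.3 CPM in HuBL livers. Glul, glutamine synthetase, was counted at 1378, 1126, 1152 and 1208 CPM in BT3xHuBL livers, against 917, 966, 939 and 999 CPM in HuBL livers. Both were higher in every BT3xHuBL liver, with log2 fold changes of 0.47 (SE 0.11) and 0.35 (SE 0.10) and edgeR adjusted p-values of 0.249 and 0.303. They were the only 2 of the 14 without overlap in liver, where 2.99% of all genes were higher without overlap. At an unadjusted p under 0.05 lay 4 of the 14, 1 of them lower in BT3xHuBL, against 11.1% of all genes tested. The 14 pericentral genes summed to 10680 to 12020 CPM in BT3xHuBL livers and to 9308 to 10640 CPM in HuBL livers, with the lowest BT3xHuBL sum just above the highest HuBL sum. In aorta 7 of the 14 were tested, with 6 above 0, a median of 0.36 and no edgeR call. Of those 7, 3 had an unadjusted p under 0.05, none of them lower, and 2 were higher without overlap. Over all 15400 genes tested in aorta these counts were 629 and 674. The 14 summed to 666.5 to 750.7 CPM in BT3xHuBL aortas and to 568.1 to 648.8 CPM in HuBL aortas. In liver the 10 general hepatocyte markers were split 5 above and 5 below 0, with a median of 0.002. At an unadjusted p under 0.05, 3 of them lay lower, and 2 did not overlap between genotypes, Serpina1c (−0.33, SE 0.11) and Ttr (−0.30, SE 0.13), both lower in BT3xHuBL, with edgeR adjusted p-values of 0.334 and 0.425. Those counts are the same as for the 10 periportal genes. No test compared the lists with each other.

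**Figure D4:**
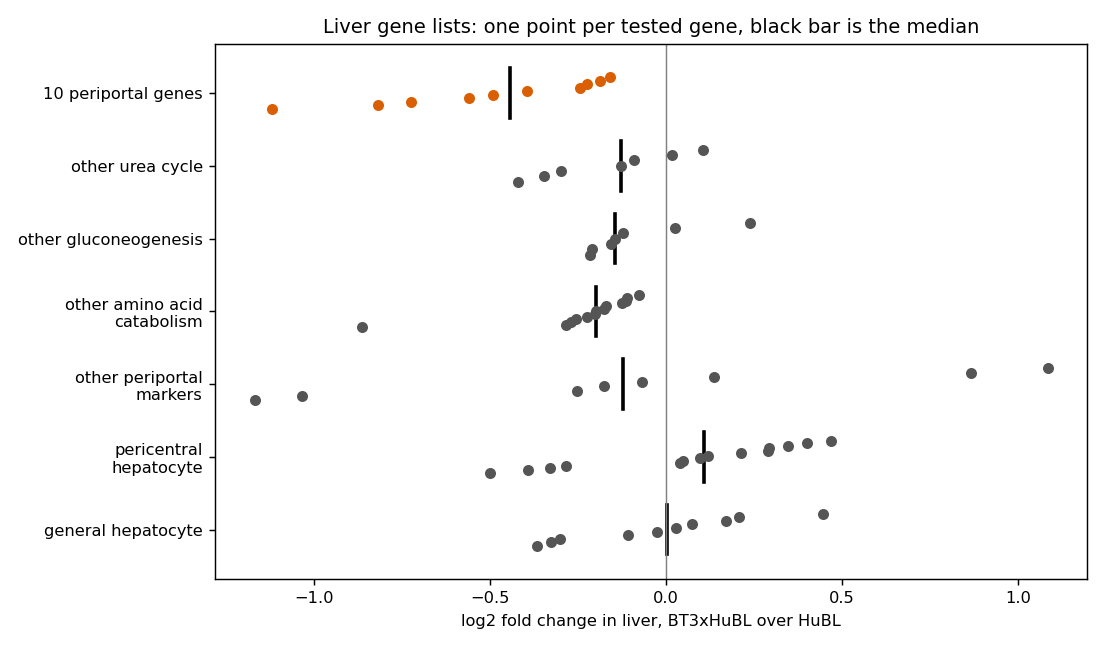
Log2 fold change in liver, BT3xHuBL over HuBL, of each tested gene (points) in 7 gene lists, with the list's median as a black bar. The 10 periportal genes have a median of −0.44, the 14 pericentral genes of 0.11 and the 10 general hepatocyte markers of 0.002.

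Known regulators of these genes also gave no edgeR call in liver. Of 14 fasting and hormone regulators 9 lay above 0 and 5 below (median 0.05), and Ppargc1a, the coactivator of gluconeogenesis, had −0.42 (SE 0.23, edgeR adjusted p = 0.494), while Foxo1, an insulin-controlled activator of Pck1 and G6pc, had −0.14 (SE 0.08, edgeR adjusted p = 0.511). Of 10 Wnt zonation genes 7 lay above 0 (median 0.07), and Lgr4, an R-spondin receptor, and Tcf7l2, the Wnt transcription factor, had −0.24 (SE 0.09) and −0.27 (SE 0.11), with edgeR adjusted p-values of 0.376 and 0.407. Of 14 clock genes tested 9 lay above 0 (median 0.11). The clock repressors Nr1d2 and Nr1d1 had 0.41 (SE 0.18) and 0.99 (SE 0.44), with edgeR adjusted p-values of 0.451 each. Dbp, a clock output gene named after its values were seen, was counted at 7.29, 40.4, 3.23 and 2.62 CPM in BT3xHuBL livers, against 1.83, 2.32, 5.34 and 2.42 CPM in HuBL livers, so BT3xHuBL liver 2 stood apart. The part of the clock in the Pck1 and G6pc values was not tested.

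Other cell types were measured beside these differences in liver, again with no edgeR call. All 7 T cell markers lay below 0 with a median of −1.11, and they summed to 6.84 to 11.3 CPM in BT3xHuBL livers and to 11.98 to 25.6 CPM in HuBL livers. At an unadjusted p under 0.05, 6 of the 7 lay lower, against 5.38% of all genes, and 2 did not overlap, both lower, against 3.58%. All of these sums are low beside those of the hepatocyte markers. Cd4, the helper T cell co-receptor, had −1.34 (SE 0.36) and Lck, a T cell kinase, −0.96 (SE 0.31), with edgeR adjusted p-values of 0.281 and 0.329. The 6 bile duct markers tested, which stand for cells that share the portal tract, had a median of 0.61, with 4 above 0, and summed to 46.1 to 71.9 CPM in BT3xHuBL livers and to 51.6 to 86.3 CPM in HuBL livers. Median log2 fold changes were 0.21 for 7 stellate cell markers, −0.05 for 6 sinusoidal endothelium markers, 0.01 for 6 Kupffer cell markers and −0.34 for 6 B and plasma cell markers. They were 0.67 for 4 fibroblast markers, all above 0, and −0.56 for 5 smooth muscle markers, 3 of them below 0, with 2 of each list at an unadjusted p under 0.05 in that direction. The part of these cells in the periportal values was not tested.

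Isozyme partners carry the same chemistry outside the periportal programme. Pck2, the mitochondrial counterpart of Pck1, was counted at 9.89, 5.95, 6.97 and 14.99 CPM in BT3xHuBL livers, against 5.17, 4.32, 4.36 and 4.501 CPM in HuBL livers. Every BT3xHuBL liver was above every HuBL liver (2.99% of all genes), with a log2 fold change of 1.04 (SE 0.27, 95% interval 0.45 to 1.63, edgeR adjusted p = 0.281), opposite in sign to that of Pck1. Sdsl, a relative of Sds, had −0.18 (SE 0.18), G6pc3, the ubiquitous glucose-6-phosphatase, 0.12 (SE 0.18), and Aldh2, the main acetaldehyde dehydrogenase, 0.06 (SE 0.10), all with edgeR adjusted p-values of 0.723 or more.

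In aorta the periportal genes were low, and their genotype differences went both ways. Of the 10 genes 7 passed the filter on low counts, of which 2 lay above 0 and 5 below, with a median of −0.01, the median of all 15400 genes being −0.004. None of the 7 was called by edgeR, which called 4 genes in all (0.026%), and none was called by DESeq2 or limma-voom. At an unadjusted p under 0.05 only Cyp2f2 lay lower, against 1.96% of all genes. The genotypes overlapped for all 7, where 9.27% of all genes did not overlap.

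Pck1 was the most abundant of the 10 in aorta, with 106, 33.8 and 94.9 CPM in BT3xHuBL aortas, against 65.5, 52.0 and 37.3 CPM in HuBL aortas. The BT3xHuBL aortas held both the 2 highest values and the lowest one, and the log2 fold change was 0.60 (SE 0.52, edgeR adjusted p = 1.00). Pck1 also serves glycerol synthesis in fat cells, and the 9 white adipocyte markers summed to 807 to 1129 CPM in BT3xHuBL aortas and to 551 to 939 CPM in HuBL aortas, all 9 with log2 fold changes above 0 (median 0.35) and none called. Plin1, a fat droplet protein named after its values were seen, was counted at 44.5, 16.9 and 39.2 CPM in BT3xHuBL aortas, against 28.5, 30.8 and 21.3 CPM in HuBL aortas. BT3xHuBL aorta 2 was lowest in Pck1 and Plin1, but the lowest sum of the 9 adipocyte markers, 551 CPM, was in a HuBL aorta. Of the 15 clock genes in aorta 11 lay above 0 (median 0.65) and 1, Dbp, was called higher by edgeR. Of the 15, 13 had an unadjusted p under 0.05, 4 of them lower, against 629 of all 15400 genes. Dbp was counted at 98.98, 96.98 and 68.2 CPM in BT3xHuBL aortas, against 32.2, 32.4 and 32.6 CPM in HuBL aortas (log2 fold change 1.44, SE 0.13, edgeR adjusted p = 0.0089). The part of adipocytes and of the clock in the aortic Pck1 values was not tested.

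Cyp2f2 was counted at 4.17, 6.21 and 5.49 CPM in BT3xHuBL aortas, against 5.46, 15.8 and 8.68 CPM in HuBL aortas. HuBL aorta 2 was far above the other 5, and the log2 fold change of −0.91 (SE 0.37, edgeR adjusted p = 1.00) was −0.42 without it. Ass1, which also supplies arginine for nitric oxide in vessels, was counted at 23.2, 22.3 and 29.3 CPM in BT3xHuBL aortas, against 29.6, 28.8 and 30.2 CPM in HuBL aortas, a log2 fold change of −0.24 (SE 0.11, edgeR adjusted p = 1.00). Only BT3xHuBL aorta 3 reached the HuBL values.

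The remaining 4 tested genes lay within 0.24 of 0 on the log2 scale. Aldh1b1 was counted at 15.3, 17.6 and 15.1 CPM in BT3xHuBL aortas, against 15.4, 14.4 and 18.4 CPM in HuBL aortas (log2 fold change −0.01, SE 0.12, 95% interval −0.28 to 0.26). Arg1 averaged 2.78 ± 0.948 CPM in BT3xHuBL aortas and 2.36 ± 0.853 CPM in HuBL aortas, with n = 3 each and SD as the error. Hal averaged 2.28 ± 0.869 CPM in BT3xHuBL aortas and 2.51 ± 0.638 CPM in HuBL aortas, and Gls2 averaged 0.975 ± 0.509 CPM in BT3xHuBL aortas and 0.978 ± 0.287 CPM in HuBL aortas. The genotypes overlapped in each of these genes. The 3 genes that were not tested were close to absent. Sds had 0 counts in the 3 BT3xHuBL aortas and 1, 0 and 0 in the HuBL aortas, Cps1 had 0 in the BT3xHuBL aortas and 0, 1 and 0 in the HuBL aortas, and G6pc had 1, 0 and 1 in the BT3xHuBL aortas and 0, 8 and 3 in the HuBL aortas.

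Set against aorta, liver held more of all 10 genes in both genotypes. In the fit of all 14 libraries edgeR called 10 of 10 higher in liver in BT3xHuBL mice, against 39.8% of all 14912 genes, and 10 of 10 in HuBL mice, against 39% of all genes. All 14 pericentral genes and all 10 general hepatocyte markers were likewise called higher in liver in both genotypes. Among the 10 periportal genes, Aldh1b1 had the smallest and Cps1 the largest difference in both genotypes. Liver exceeded aorta for Aldh1b1 by 3.02 (SE 0.22) on the log2 scale in BT3xHuBL and 3.84 (SE 0.23) in HuBL mice, and for Ass1 by 4.66 (SE 0.23) and 4.67 (SE 0.23). For Pck1 the difference was 4.68 (SE 0.52) in BT3xHuBL and 6.02 (SE 0.55) in HuBL mice. Hal and Cyp2f2 lay near 8, with 7.84 and 8.21 in BT3xHuBL and 7.91 and 7.88 in HuBL mice, with standard errors of 0.33 and 0.39 in BT3xHuBL and 0.33 and 0.38 in HuBL mice. Gls2 reached 8.58 and 8.95, and Arg1 9.29 and 9.71, in BT3xHuBL and HuBL mice. All had edgeR adjusted p-values of 1.13e-06 or less. Under upper quartile scaling the median of all genes was −0.25 in BT3xHuBL and −0.29 in HuBL mice, against −0.07 and −0.10 here, and all 10 stayed called higher.

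For the 3 genes near 0 in aorta the ratio rests on a handful of aortic counts. Cps1 was at least 239100-fold higher in BT3xHuBL liver, taking 3 counts over the group as the floor, and 754600-fold in HuBL liver (95% counting interval 135400 to 29810000). Sds was at least 11540-fold higher in BT3xHuBL liver and 44770-fold in HuBL liver (8033 to 1769000). G6pc was 42190-fold higher in BT3xHuBL liver (11680 to 348400) and 15860-fold in HuBL liver (8865 to 31780). These intervals cover counting error only.

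The isozyme partners showed the other side of this division. Pck2 was lower in liver than in aorta, with a log2 fold change of −1.62 (SE 0.21) in BT3xHuBL and −2.62 (SE 0.23) in HuBL mice, as was G6pc3 (−1.22 and −1.35), both called by edgeR in both genotypes. Arg2 had −1.26 (edgeR adjusted p = 0.00814) in BT3xHuBL and −0.81 (edgeR adjusted p = 0.0818) in HuBL mice. Aldh2 (2.92 and 2.85) and Sdsl (1.27 and 1.602) were higher in liver, like their periportal partners. As each 3′-end count stands for a transcript without regard to its length, the share of a pair can be read from CPM. Pck1 made up 99.1% ± 0.445 of the Pck1 and Pck2 counts in BT3xHuBL livers and 99.8% ± 0.0183 in HuBL livers (SD, n = 4 each), against 58.2% ± 16.2 in BT3xHuBL aortas and 51.03% ± 7.03 in HuBL aortas (SD, n = 3 each). G6pc made up 96.8% and 98.3% of its pair in BT3xHuBL and HuBL livers, and 0.0358% and 0.260% in BT3xHuBL and HuBL aortas. In the Aldh1b1 pair Aldh2 outweighed the periportal gene in every group. Aldh1b1 made up 3.26% ± 0.799 of the pair in BT3xHuBL livers and 5.86% ± 1.46 in HuBL livers, against 3.07% ± 0.498 in BT3xHuBL aortas and 3.03% ± 0.489 in HuBL aortas.

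**Figure D5:**
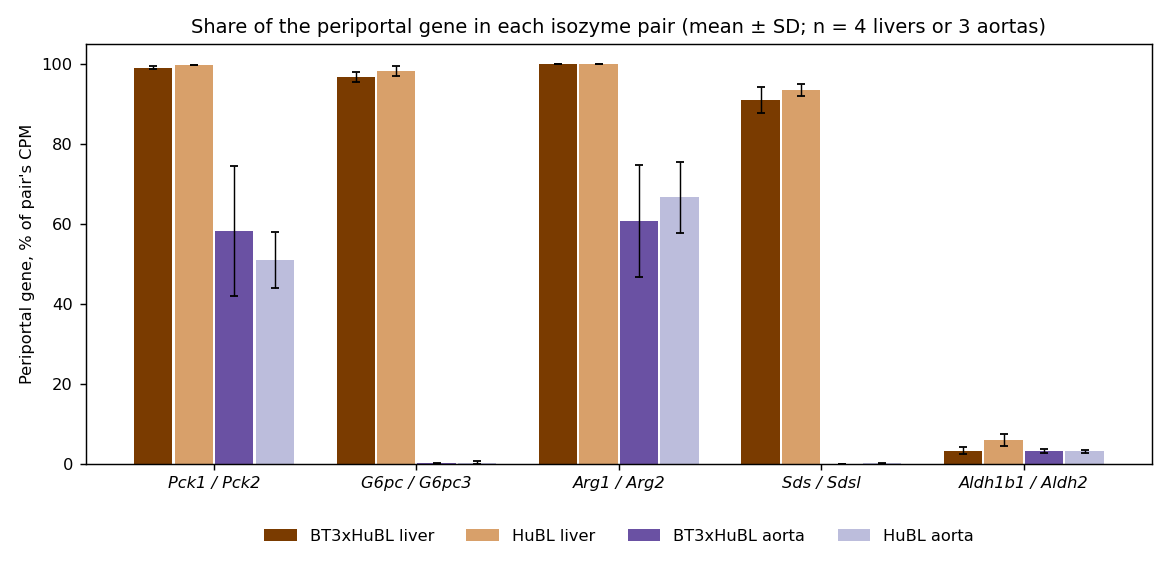
Share of the periportal gene in the summed CPM of each isozyme pair (percent, bars from 0, mean ± SD) in BT3xHuBL and HuBL livers (n = 4 each) and BT3xHuBL and HuBL aortas (n = 3 each). Pck1 makes up 99.1% and 99.8% of its pair in BT3xHuBL and HuBL livers and 58.2% and 51.03% in BT3xHuBL and HuBL aortas, while Aldh1b1 is the minor partner in all 4 groups.

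Whether the genotype difference itself differed between liver and aorta was tested by the interaction, which called 0 of 14912 genes in edgeR (0%), with 1217 at an unadjusted p under 0.05 (8.16%). Of the 7 members measurable in both tissues, 2 had an unadjusted p under 0.05 and lay below 0, against 4.02% of all genes. Aldh1b1 had −0.82 (SE 0.28, 95% interval −1.41 to −0.22, edgeR adjusted p = 0.508), with a genotype difference of −0.82 in liver and −0.01 in aorta. Pck1 had −1.33 (SE 0.60, 95% interval −2.63 to −0.04, edgeR adjusted p = 0.602), with −0.72 in liver and 0.60 in aorta. The other 5 ran between −0.42 (Arg1) and 0.33 (Cyp2f2), each with an interval that held 0. Pck2, the partner of Pck1, had 1.00 (SE 0.31, edgeR adjusted p = 0.463).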

How the data were processed

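Tissue and genotype labels grouped the 14 libraries. QuantSeq V2 libraries (Lexogen), which read near 3′ ends, were made from Qiagen column RNA, per the labels' protocols. The authors deposited raw, unnormalized counts for each feature. HTSeq 2.0 and GRCm38 are named in the submitters' processing notes. For aligner, strand setting and annotation: not given in the sources used here. Feature starts in the tables did not match GRCm38, so gene positions come from GENCODE M21 by symbol.

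Liver and aorta were fitted separately in edgeR 4.0.16 under R 4.3.3, with genes kept by filterByExpr, TMM scaling and the two-sided quasi-likelihood F-test with robust weights, Benjamini-Hochberg adjustment over all genes tested, threshold 0.05. Liver against aorta and the interaction came from a fit of all 14 libraries, whose scaling differs from that of the tissue fits, so that its folds are not ratios of the printed CPM. CPM use TMM-scaled library sizes. Log2 fold changes use a prior count of 0.125, and for genes near 0 in aorta summed counts replace them, with 95% exact intervals or a floor of 3 counts. Tissue could not be separated from library series.

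The 10 members and the gene lists were chosen with earlier results of these data known. Named are all members, isozyme partners (1 gene of the list is not reported here) and, from each list, the called genes (up to 4) or else the 2 of smallest p. Alternatives were RLE and upper quartile scaling, no low-count filter, a mean CPM of 5 or more, DESeq2 1.42.0, limma-voom (limma 3.58.1), no robust weights, a replicate block, the fit of all 14 libraries, and each library left out. On simulated liver counts edgeR found 18.3% of the genes changed 1.5-fold, 78.9% of those changed 2-fold and 88.4% of those changed 3-fold, with 6 of 134 calls false. Since 200 genes were changed there, these shares are higher than where few genes pass. The simulated counts also held no shift shared by the genes of a library. No library repeated another.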

Additional observations from a re-analysis of the deposited data

Results flagged for a closer look

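Pck1 in HuBL liver 1 stood at 2435 CPM, apart from the other 3 HuBL livers (1751, 1783 and 1866 CPM). Its gap to the nearest of them was 0.832 of the group's whole range, just above the 95% critical value of Dixon's test for 4 samples. The 10 genes in 2 liver groups made 20 groups examined, and chance flags about 1 in 20 groups. Without HuBL liver 1 the log2 fold change of Pck1, BT3xHuBL over HuBL, was −0.60, against −0.72 with it.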

How the results depend on the processing

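All 10 liver differences kept their direction under every alternative, and all 10 genes stayed called higher in liver than in aorta in both genotypes. DESeq2 called 2 of the 10 in liver, 127 genes in liver, 68 in aorta and 44 in the interaction, where edgeR called 0, 0, 4 and 0. Other counts over all genes were 5 in liver with the fit of all 14 libraries, and in aorta 9 without a filter and 0 with limma-voom. Leaving out 1 library gave 0 to 5 genes in liver (5 without BT3xHuBL liver 2, 2 without BT3xHuBL liver 3), 0 to 27 in aorta (27 without BT3xHuBL aorta 3, 2 without HuBL aorta 1, 0 without HuBL aorta 2 or HuBL aorta 3) and 0 to 3 in the interaction (3 without BT3xHuBL liver 2). The cause was not tested.

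Deviations of same-numbered BT3xHuBL and HuBL libraries correlated at −0.04 to 0.16 in liver and −0.06 to 0.14 in aorta. Differently numbered libraries of the 2 genotypes ran over a similar range, −0.22 to 0.17 in liver and −0.14 to 0.14 in aorta. These values gave no sign that the numbers pair the genotypes within a tissue. Livers were not compared with aortas of the same number, so pairing between tissues was not tested. With the number as a replicate block edgeR called 10 genes in liver, 14 in aorta and 0 in the interaction, and none of the periportal genes in any of these.

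Aorta differences near 0 changed sign. Aldh1b1 was 0.0012 in the fit of all 14 libraries, and leaving out 1 library gave −0.08 to 0.11 for Aldh1b1, −0.31 to 0.16 for Hal, −0.49 to 0.29 for Gls2 and −0.068 to 0.57 for Arg1. In the interaction Ass1 was 0.0032 under upper quartile scaling, and leaving out 1 library gave −0.22 to 0.12 for Ass1, −0.15 to 0.63 for Cyp2f2, −0.36 to 0.11 for Hal and −0.68 to 0.13 for Gls2. In liver, leaving out 1 library moved the differences of Ass1 (−0.45 to −0.13), Cps1 (−0.40 to −0.07), Arg1 (−0.26 to −0.05) and Hal (−0.30 to −0.10) by over 1.5 times. The same held for Sds (−0.90 to −0.23) and Pck1 (−1.03 to −0.45), and none of these genes was called. On simulated counts edgeR recovered 18.3% of genes changed 1.5-fold in liver, 38.5% in aorta and 7.69% in the interaction.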
